A study of Homo sapiens with 4 samples.

Results

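Iron storage, uptake, export, sensing and heme turnover were followed through 10 genes: FTL, FTH1, NCOA4, TFRC, SLC11A2, SLC40A1, IREB2, ACO1, ALAS1 and HMOX1. They were chosen by name, with earlier results of these data known. All 10 were found among the 58735 genes of the series. Of these, 9 reached 1 FPKM, a level per kilobase of exon and per depth of the library, in at least 1 library, as did 13678 genes in all, and SLC40A1 did not. The RNA-seq data come from OMM2.3, a human uveal melanoma line in long-term culture, with 4 libraries and 1 library per group. The groups were cells given CCCP, cells given DHA, cells given CCCP and DHA together, and control cells. CCCP is a protonophore that dissipates the proton gradient across the inner mitochondrial membrane. What DHA stands for, the doses, the exposure times and the handling of the control cells are left unstated by the sources used here. All groups shared 1 line and a medium with 10% serum, so no result below extends to other lines.

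Cells take up transferrin-bound iron through the transferrin receptor, store what they do not use inside ferritin shells, and export iron through ferroportin. In the cytosol, 2 iron regulatory proteins bind hairpins called iron-responsive elements when iron is scarce. Binding near the start of an mRNA blocks its translation, as in ferritin, and binding in the 3′ part of the transferrin receptor mRNA slows its decay. Heme, made from iron and protoporphyrin in mitochondria, is broken down by heme oxygenase, which releases the iron again.

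The elements are shown because they were found independently of the measured levels. The pattern was strict and 1 transcript per gene was searched, so other elements could be missed. The matches therefore do not sort the genes by mode of iron control. The search asked for a single C, then any 5 bases, then the loop CAGTGN with its last base not G, on the transcript strand of the longest protein-coding transcript of each gene (GENCODE 29, GRCh38). The 5 bases on either side of the loop had to pair, and at least 3 of the next 5 beyond the single C. Capitals mark that C and the 6-base loop.
FTL: tcttgCttcaaCAGTGTttggacggaa
FTH1: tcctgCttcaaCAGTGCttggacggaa
SLC40A1: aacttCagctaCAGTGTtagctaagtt
TFRC element 1: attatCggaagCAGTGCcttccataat
TFRC element 2: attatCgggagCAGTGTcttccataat
TFRC element 3: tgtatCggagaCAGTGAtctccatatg
TFRC element 4: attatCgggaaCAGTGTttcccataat

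The FTL element lies in the 5′ UTR at chr19:48965336-48965362 on the plus strand, and the FTH1 element in the 5′ UTR at chr11:61967575-61967601 on the minus strand. Counted from 1 at the 5′ end of the 27 bases, the FTH1 element differs from that of FTL at C3T and C17T. The SLC40A1 element lies in the 5′ UTR at chr2:189580662-189580688. All 4 TFRC elements found by the search lie in the 3′ UTR on the minus strand of chromosome 3, between 196050464 and 196051006. The pattern was found in none of the other 6 genes, which says only that these letters are not in those transcripts. Among 19684 protein-coding genes, 54 (0.274%) held it anywhere and 7 (0.0356%) within the first 300 bases. TFRC alone held 4 or more matches.

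The files gave whole reads back from FPKM, with 16900411 to 18937286 reads summed over genes per library. Of 13 lineage markers of melanocytes, 5 reached 1 FPKM in at least 1 library: GPNMB, GPR143, RAB27A, MITF and PMEL. PAX3, TYR, OCA2 and SLC45A2 had 0 reads in every library. Of the 5, only GPR143 lay above control with both compounds, at 21.4 against 16.5 FPKM. GPNMB stood at 23.3 FPKM with both and 34.9 in control, and MITF at 5.01 and 8.81. Erythroid markers, which mark the cells that make most heme, were at or near 0 apart from the receptor gene EPOR, with 9 of 12 at 0 reads throughout. Melanocyte markers summed to 73.5 FPKM with CCCP, 63.3 with DHA and 59.0 with both, against 71.3 in control. Macrophage and leukocyte markers summed to at most 1.35 FPKM and endothelial markers to at most 0.428 FPKM. Fibroblast markers, 4 of 10 of which reached 1 FPKM, summed to 49.8 FPKM with CCCP, 47.4 with DHA and 31.4 with both, against 73.0 in control. FBN1 alone stood at 40.4 FPKM in control and 22.4 with both. FAP, COL1A1 and PDGFRB were the others that reached 1 FPKM, and LUM and THY1 had 0 reads in every library. Among transcripts with short half-lives, which respond to sample handling, 14 were measured. Of these, 3 were at least 2-fold higher and 1 was at least 2-fold lower with both compounds than in control, and the median log2 ratio was 0.71. Over all genes tested, 4.52% were higher and 5.44% lower, with a median of 0.01. The part of these lists in the results below was not tested. In bulk RNA, fewer cells of a type and less RNA per cell cannot be told apart.

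Ratios between 2 libraries have no replicate check and no test. The bracketed ranges are exact 95% Clopper-Pearson intervals on reads, which cover counting error only. Counts of higher and lower genes use 2-fold or more on log2(FPKM + 0.5), a scale that understates the change of low genes.

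Ferritin mRNA was higher in all 3 treated libraries than in control, most with both compounds. FTL encodes the ferritin light chain, which helps iron form a core inside the shell (ENSG00000087086, chromosome 19, 48965301 to 48966878). It stood at 7916 FPKM with CCCP, 4160.4 with DHA and 11355 with both, against 3199 in control. The CCCP library was thus nearer to the joint library, and the DHA library nearer to control. FTL was 2.47-fold (2.45 to 2.5) higher with CCCP, 1.3-fold (1.29 to 1.32) higher with DHA and 3.55-fold (3.52 to 3.58) higher with both. With both compounds FTL had the highest FPKM of all genes and took 1.02% of all reads, against 0.289% in control, where it ranked 8.

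FTH1 encodes the heavy chain, which carries the ferroxidase activity that oxidizes iron for storage (ENSG00000167996, chromosome 11). Its level was 201 FPKM with CCCP, 184 with DHA and 430.4 with both, against 150.3 in control. Only the joint library stood well apart. FTH1 was 1.34-fold (1.29 to 1.38) higher with CCCP, 1.23-fold (1.18 to 1.27) higher with DHA and 2.86-fold (2.78 to 2.95) higher with both. The heavy chain thus passed 2-fold in the joint library, and the light chain in the CCCP and joint libraries.

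The chains differed in proportion between libraries. Per length, FTL exceeded FTH1 39.4-fold with CCCP, 22.6-fold with DHA and 26.4-fold with both, against 21.3-fold in control. The size of this ratio rests on how shared reads were assigned, which the sources used here do not state. BEST1, on the opposite strand, shares 1267 exon bases with FTH1, 62.4% of the FTH1 exon length, and strand is lost with the library kit that was used. BEST1 had 9 reads with CCCP, 22 with DHA and 45 with both, against 3 in control.

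Ferritin has many processed pseudogenes that could take reads from their parents. The 25 FTH1 pseudogenes held 296 reads with CCCP, 276 with DHA and 654 with both, against 192 in control, or 3.23 to 4.34% of the FTH1 reads. FTH1P7 and FTH1P2 had the most, with 201 and 198 reads in the joint library. The 16 FTL pseudogenes held at most 0.0461% of the FTL reads. With pseudogene reads added, FTH1 was 1.35-fold, 1.24-fold and 2.89-fold higher with CCCP, DHA and both, and FTL 2.47-fold, 1.3-fold and 3.55-fold.

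NCOA4, the cargo receptor that delivers ferritin to autophagosomes for breakdown, hardly differed. Its level was 38.1 FPKM with CCCP, 43.3 with DHA and 43.1 with both, against 41.5 in control. The highest library exceeded the lowest 1.14-fold.

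**Figure D1:**
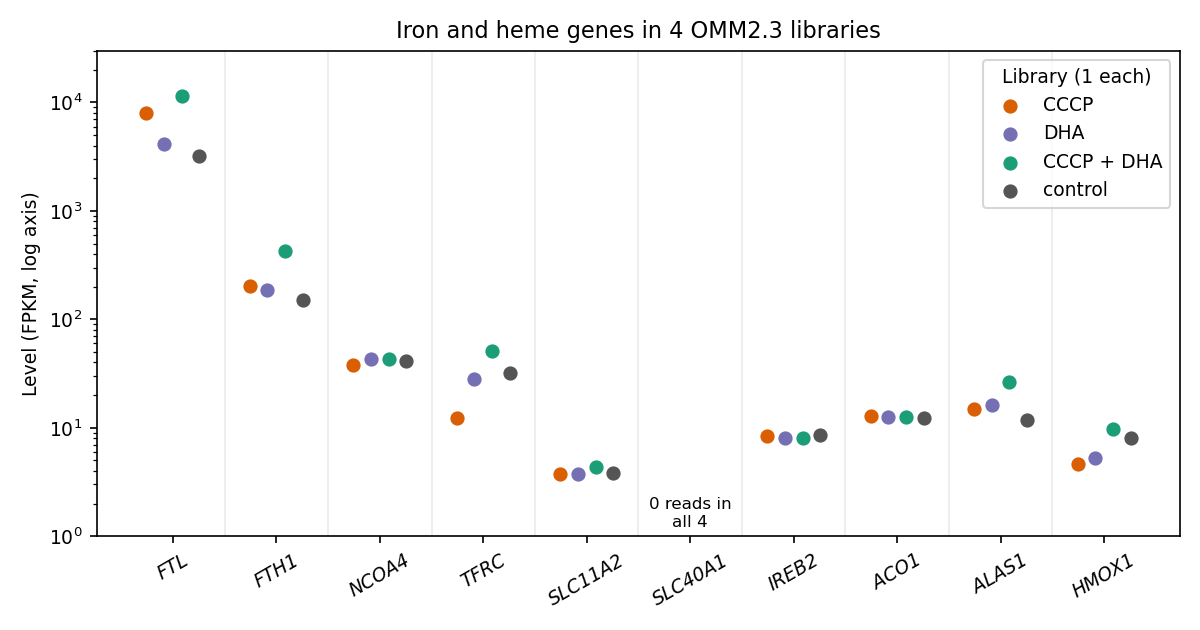
Level of the 10 genes in FPKM (log axis) in the CCCP, DHA, CCCP + DHA and control libraries, 1 point per library and no replicates. FTL lies far above the rest and reaches 11355 FPKM with both compounds, TFRC is lowest with CCCP at 12.4 FPKM, and SLC40A1 had 0 reads in all 4.

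The transferrin receptor went the opposite way from ferritin with CCCP alone, and slightly so with DHA alone, and the same way with both compounds. TFRC (ENSG00000072274, chromosome 3, 196027183 to 196082189) encodes the receptor that takes up transferrin-bound iron. Its level was 12.4 FPKM with CCCP, 28.0 with DHA and 50.9 with both, against 31.9 in control. The CCCP library was the lowest and the joint library the highest. TFRC was 2.58-fold (2.44 to 2.73) lower with CCCP and 1.14-fold (1.09 to 1.19) lower with DHA, and 1.59-fold (1.54 to 1.65) higher with both. Set against the single exposures, the joint library was 4.12-fold (3.9 to 4.35) higher than CCCP alone and 1.81-fold (1.74 to 1.89) higher than DHA alone. The TFRC values rest on 1628 to 6926 reads per library.

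Storage and uptake transcripts can be set against each other per length. FTL exceeded TFRC 641-fold with CCCP, 148-fold with DHA and 223-fold with both, against 100.3-fold in control. FTH1 exceeded TFRC 16.3-fold, 6.58-fold and 8.46-fold in the 3 treated libraries in the same order, against 4.71-fold in control. The CCCP library was the highest by either measure.

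SLC11A2 (DMT1), which moves iron across endosomal and plasma membranes, was low and similar in the 4 libraries. It stood at 3.72 FPKM with CCCP, 3.72 with DHA and 4.31 with both, against 3.79 in control. The joint library was the highest, 1.14-fold (1.03 to 1.26) above control. SLC40A1 (ferroportin), the only known cellular iron exporter, had 0 reads in every library. A count of 0 allows up to 0.0415 FPKM, the level of 3 reads in the shallowest case.

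The iron regulatory proteins differed little. ACO1 encodes IRP1, which is a cytosolic aconitase when it holds an iron-sulfur cluster and an RNA-binding protein when it does not. Its level was 12.9 FPKM with CCCP, 12.5 with DHA and 12.6 with both, against 12.3 in control, a span of 1.04-fold over 1623 to 1814 reads. IREB2 encodes IRP2, which is degraded when iron is plentiful. Its level was 8.33 FPKM with CCCP, 7.99 with DHA and 8.08 with both, against 8.66 in control, a span of 1.08-fold. All 3 intervals of ACO1 against control included 1. For IREB2 the ratio to control excluded 1 with DHA (0.861 to 0.988) and barely with both (0.871 to 0.9998). None of these values bears on the proteins, which are controlled after translation.

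The first enzyme of heme synthesis was higher with both compounds. ALAS1, the 5-aminolevulinate synthase of non-erythroid cells and the rate-limiting step there, stood at 14.8 FPKM with CCCP, 16.2 with DHA and 26.5 with both, against 11.8 in control. The single exposures lay between control and the joint library. ALAS1 was 1.25-fold (1.12 to 1.4) higher with CCCP, 1.37-fold (1.23 to 1.54) higher with DHA and 2.25-fold (2.03 to 2.49) higher with both. The joint library rested on 1162 reads and control on 583.

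Heme oxygenase 1, the inducible enzyme that opens the heme ring and frees its iron, did not follow ferritin. HMOX1 stood at 4.68 FPKM with CCCP, 5.31 with DHA and 9.68 with both, against 8.08 in control. Both single exposures lay below control and the joint library above it. HMOX1 was 1.73-fold (1.45 to 2.07) lower with CCCP and 1.52-fold (1.28 to 1.8) lower with DHA, and 1.2-fold (1.04 to 1.38) higher with both. The joint library was 2.07-fold (1.74 to 2.47) higher than CCCP alone and 1.82-fold (1.54 to 2.16) higher than DHA alone. Reads were few, 188 with CCCP, 220 with DHA and 402 with both, against 378 in control.

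**Figure D2:**
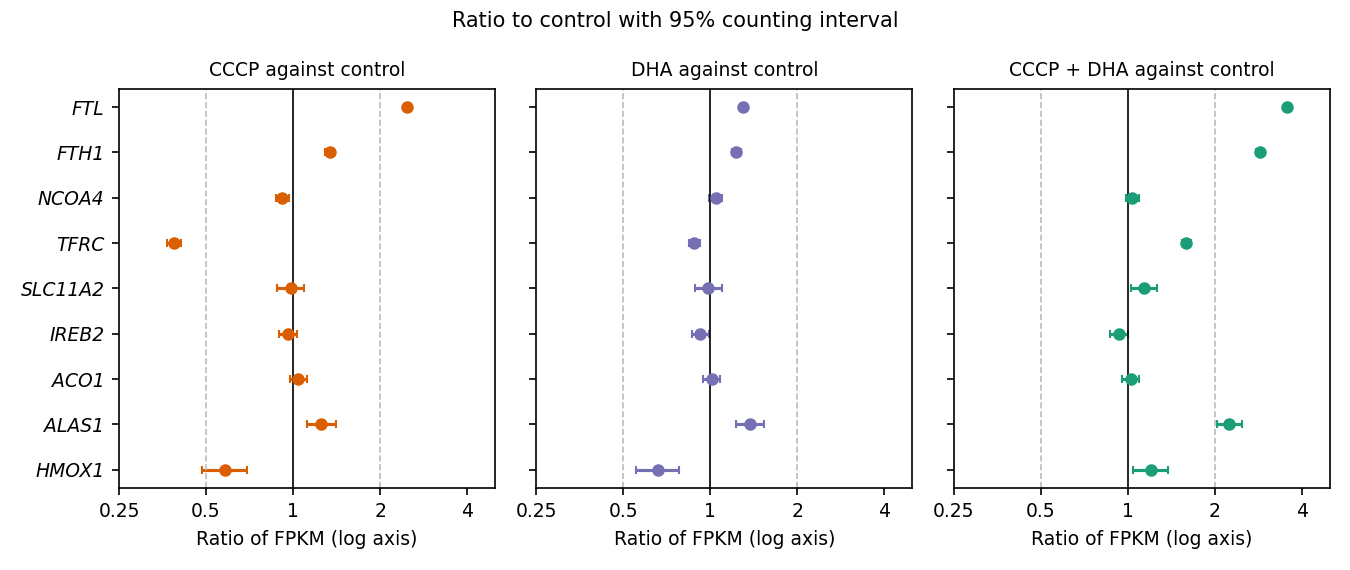
Ratio of FPKM to control (log axis) for the 9 genes with reads, with 95% counting intervals; dashed lines mark 2-fold. FTL lies above 2-fold and TFRC below it with CCCP, no gene passes 2-fold with DHA, and FTL, FTH1 and ALAS1 lie above 2-fold with both.

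Counted over the 9 measured genes, CCCP against control gave 1 gene at least 2-fold higher (FTL) and 1 lower (TFRC). Over all genes tested the shares were 3.21% higher and 2.32% lower. DHA against control gave 0 higher and 0 lower, against 2.0% and 1.86% of all genes. CCCP + DHA against control gave 3 higher (FTL, FTH1 and ALAS1) and 0 lower, against 4.52% and 5.44% of all genes. The members' median log2 ratio was -0.02 with CCCP, 0.02 with DHA and 0.25 with both, against 0.00, 0.00 and 0.01 over all genes tested. These 3 comparisons share the control library. The members were chosen with earlier results of these data known. Their counts, here and below, set against the share of all genes therefore support nothing about the group.

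DHA added to CCCP-treated cells gave 2 genes at least 2-fold higher, TFRC and FTH1, and 0 lower, where 3.46% and 4.94% of all genes were. HMOX1, 2.07-fold higher in FPKM, missed this count only through the pseudocount of 0.5 (log2 0.98), and with a pseudocount of 0.1 (log2 1.03) or rescaling to equal summed reads (log2 1.02) the count was 3. FTH1 was 2.14-fold (2.08 to 2.2) higher in the joint library than with CCCP alone, while FTL was 1.43-fold (1.42 to 1.44) higher. CCCP added to DHA-treated cells gave FTL and FTH1 at least 2-fold higher and 0 lower, where 3.27% and 3.63% of all genes were. FTL was 2.73-fold (2.7 to 2.75) and FTH1 2.33-fold (2.27 to 2.4) higher in the joint library than with DHA alone. IREB2, ACO1 and NCOA4 had intervals that included 1 for the joint library against DHA alone.

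How far the joint response departed from the sum of the single responses differed among the genes. On the log2(FPKM + 0.5) scale, the departure was 2.18 for TFRC and 1.54 for HMOX1. Over all genes tested, 3.77% had a departure of at least 1 upward and 4.42% downward. Multiplying the single ratios gives 10.9 FPKM for TFRC, where 50.9 was measured with both compounds, and 3.08 FPKM for HMOX1, where 9.68 was measured. FTH1 departed by 0.80 and ALAS1 by 0.38. FTL departed by 0.14, with 10296 FPKM from the product and 11355 measured, so the light chain lay close to the product and the heavy chain above it. The other 4 measured genes lay between -0.04 and 0.21.

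**Figure D3:**
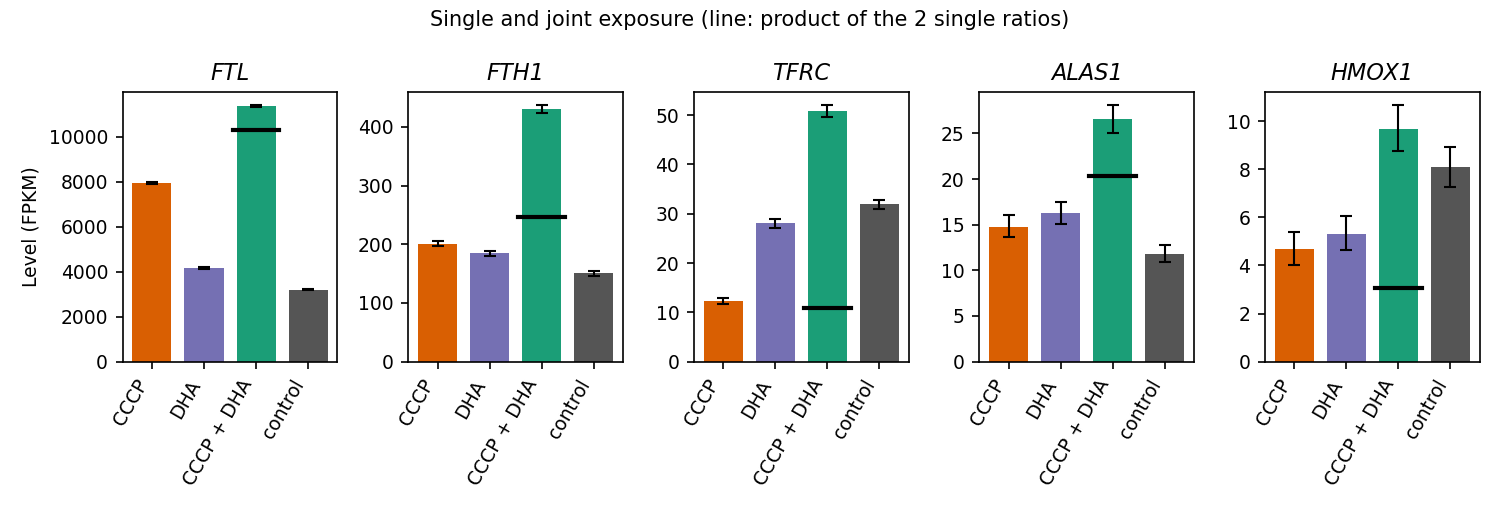
Level in FPKM of 5 genes in the CCCP, DHA, CCCP + DHA and control libraries, with exact 95% Poisson intervals from reads; the black line is the level given by multiplying the single ratios to control. The joint bar of TFRC (50.9 FPKM) and of HMOX1 (9.68 FPKM) stands far above its line (10.9 and 3.08 FPKM), and that of FTL is close to it.

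**Figure D4:**
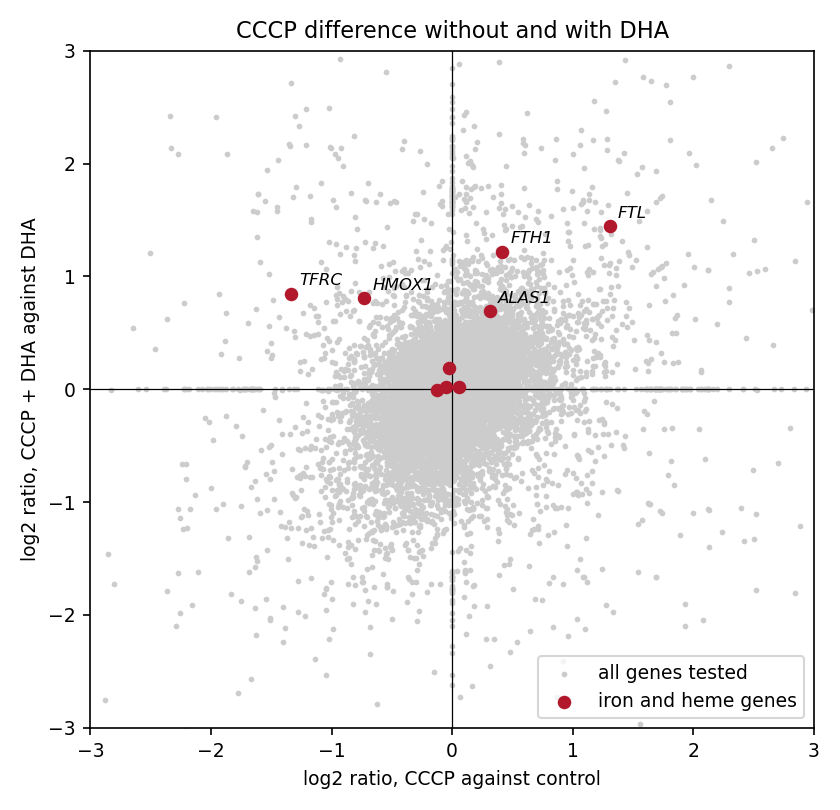
log2 ratio of CCCP against control (x axis) and of CCCP + DHA against DHA (y axis) for all genes tested in grey and the 9 measured iron and heme genes in red; 21 genes lie outside the axes. TFRC and HMOX1 fall to the left of 0 and above 0, at -1.33 and 0.85 and at -0.73 and 0.81, while FTL and FTH1 lie above 0 on both axes.

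Since 2 of the 4 libraries held each compound, its effect could be tested over both pairs in an additive limma-trend fit across all genes, with 1 residual degree of freedom. That fit takes any departure from additivity as the spread. With CCCP, none of the 9 genes passed a Benjamini-Hochberg adjusted p of 0.05, and 3 had an unadjusted p under 0.05, against 1979 of 13678 genes. The largest effect was that of FTL (log2 1.38, SE 0.31, adjusted p 0.158), higher in 2 of 2 pairs. FTH1 (log2 0.82, adjusted p 0.228) and ALAS1 (log2 0.50, adjusted p 0.243) were also higher in both pairs. With DHA, none passed, and 2 had an unadjusted p under 0.05, against 1660 genes. ALAS1 had a log2 effect of 0.63 (SE 0.16, adjusted p 0.285), and FTH1 one of 0.70 (adjusted p 0.356). Over all genes, the share called higher and lower was 0.0366% and 0.0585% with CCCP and 0.095% and 0.00731% with DHA.

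The calls depended on the fit. With limma-voom on the recovered reads, FTL (adjusted p 0.000385) and FTH1 (0.00863) passed for CCCP, and ALAS1 (0.0198), FTH1 (0.0338) and TFRC (0.0422) passed for DHA. Over the 9 alternative fits, the limma adjusted p for CCCP ran between 0.000385 and 0.418 for FTL and between 0.00863 and 0.453 for FTH1. For DHA it ran between 0.00823 and 0.591 for ALAS1, between 0.0338 and 0.591 for FTH1 and between 5.8e-06 and 0.625 for TFRC. The TFRC effect of DHA in that fit averages a lower level without CCCP and a higher level with it.

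Other genes of iron and heme biology came from lists drawn up by function, also with earlier results of these data known. Of 10 measured genes of iron uptake and reduction, 1 was at least 2-fold higher with both compounds and 0 lower, where 4.52% and 5.44% of all genes were. That gene was LCN2, which encodes lipocalin 2, a secreted protein that binds iron-carrying siderophores. It had 125 reads (4.53 FPKM) with both compounds, against 5 reads in CCCP, in DHA and in control, and was 28.2-fold (11.8 to 88.3) higher than control. LCN2 reached 1 FPKM in the joint library alone, so it could be counted as measured only by differing, and its count supports nothing about the list. Of 4 measured genes of iron export, storage and its hormone, 0 were at least 2-fold higher with both compounds and 1 was lower. That was BMP6, which averaged 0.799 FPKM and is named after its value was seen. BMP6 reached 1 FPKM only with CCCP (1.36) and in control (1.09), against 0.25 with both. It was thus measured only through the libraries where it was high, and its count supports nothing about the list. PRNP and PCBP2 were at 78.0 and 27.4 FPKM with both and 66.9 and 21.6 FPKM in control. Hepcidin, the circulating hormone that degrades ferroportin, is on that list through HAMP, which did not reach 1 FPKM.

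The 9 genes of iron sensing and ferritin turnover had median log2 ratios to control of 0.23 (CCCP), 0.10 (DHA) and 0.52 (both). Over all genes tested the medians were 0.00, 0.00 and 0.01. In the joint library 8 of 9 lay above control, against 6941 of 13678 genes tested. None passed 2-fold, where 4.52% of all genes were higher and 5.44% lower. TAX1BP1, an autophagy receptor that works with NCOA4 on ferritin, was 1.82-fold (1.72 to 1.92) higher with both. NFE2L2, which encodes NRF2, a transcription factor that drives ferritin and antioxidant genes, was 1.76-fold (1.65 to 1.88) higher. Of 22 genes of mitochondrial iron and iron-sulfur clusters, 1 was at least 2-fold higher with both and 0 lower, with a median of 0.00, a share near the 4.52% of all genes. That gene was ISCU, the scaffold on which iron-sulfur clusters are built, at 18.8 FPKM with CCCP, 14.7 with DHA and 25.8 with both, against 12.0 in control.

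Heme synthesis beyond ALAS1 showed no shared direction. With both compounds, 0 of 13 measured genes passed 2-fold upward and 1 passed it downward, where 4.52% and 5.44% of all genes did. Above control lay 7 of 13, with a median log2 ratio of 0.02, against 6941 of 13678 genes tested and a median of 0.01. The lower gene was ALAD, the next enzyme after ALAS1, at 8.32 FPKM with CCCP, 7.62 with DHA and 4.12 with both, against 9.11 in control. Of 5 measured genes of heme breakdown and transport, 0 passed 2-fold with both compounds, where 4.52% of all genes were higher and 5.44% lower. BLVRB, which reduces biliverdins made from heme, was at 44.1 FPKM with CCCP, 38.3 with DHA and 49.2 with both, against 27.3 in control. FLVCR1, a membrane transporter linked to heme export, was at 2.24, 2.17 and 1.94 FPKM in the treated libraries in the same order, against 3.11 in control.

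**Figure D5:**
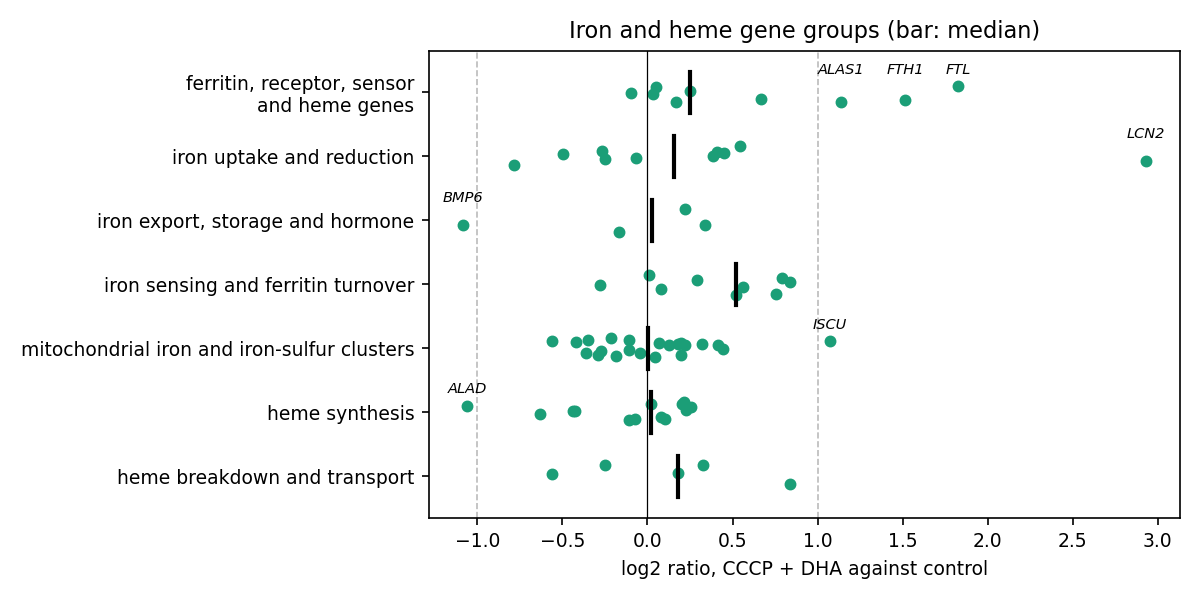
log2 ratio of CCCP + DHA against control for the measured genes of 7 groups, 1 point per gene, with the median as a bar and dashed lines at 2-fold; genes past 2-fold are named. The medians lie between 0.00 and 0.52. FTL, FTH1, ALAS1, LCN2 and ISCU are past 2-fold upward, and BMP6 (-1.08) and ALAD (-1.06) downward.

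Genes with the most similar pattern were taken, for each member past 2-fold against control, from the 3824 protein-coding genes averaging 10 FPKM or more, by the distance between their 3 log2 ratios to control. Nearest to FTL were GADD45A (distance 0.36), CD55 (0.41) and TXNRD1 (0.45). Nearest to FTH1 was SQSTM1 (0.20), followed by RASSF8 and AP1AR. Nearest to ALAS1 was YBX3 (0.11). For TFRC they were RRS1 (0.50), CXCL8 (0.68) and E2F7 (0.75), farther than those of FTL, FTH1 and ALAS1. No distance was set below which a gene counts as close. CXCL8 stood at 7.48 FPKM with CCCP, 17.1 with DHA and 29.7 with both, against 14.5 in control. The patterns span 4 libraries of 1 sample each.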

How the data were processed

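RNA of OMM2.3 cells was sequenced in 4 libraries, 1 per group, prepared with a TruSeq kit from 1 ug of RNA, per the labels' protocols. The values deposited by the authors are FPKM, per the file headers, with 58735 genes in each file. The sources used here name no aligner, counter or build. All gene identifiers matched GENCODE 29 (Ensembl 94), which gave exon lengths, gene types and coordinates.

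FPKM multiplied by exon length gave whole reads for 100% of values above 0 once divided by the size of 1 read (tolerance 0.01 reads). The implied library sizes equalled median-of-ratios size factors, so the values carried that scaling and were used as deposited. Log2 ratios and the counts of higher and lower genes used a pseudocount of 0.5. Fold ratios and their intervals used none. The spread behind the p-values of the additive fit is the departure from additivity in these 4 libraries. Nothing states separate cultures, so they do not measure a spread between replicates.

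The members and lists were chosen with earlier results of these data known. Named genes were all members and, per list, those with a mean of at least 1 FPKM that differed 2-fold from control, or otherwise up to 2 with the largest joint ratio. CD163 was counted in 2 lists. Alternatives were pseudocounts, filters, scalings, fold rules, limma without trend, voom, protein-coding genes alone and pseudogene sums. Tools were Python 3.11.15, numpy 2.4.6, pandas 2.3.3, scipy 1.17.1, matplotlib 3.10.9, R 4.3.3 and limma 3.58.1.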

Additional observations from a re-analysis of the deposited data

Results flagged for a closer look

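TFRC and HMOX1 were flagged because the ratio for each compound had opposite directions depending on whether the other was present. The rule was applied to the members only, so the share of all genes that meet it is not known. With 1 library per group, the difference was not tested. For TFRC the log2 ratio for CCCP was 0.85 with DHA present and -1.33 without it, and the log2 ratio for DHA was 2.0 with CCCP present and -0.18 without it. For HMOX1 the log2 ratio for CCCP was 0.81 with DHA present and -0.73 without it, and that for DHA was 0.98 with CCCP present and -0.56 without it. All 8 counting intervals excluded 1, which the rule for flagging a gene required, so this adds no support. The joint library is common to both ratios taken with the other compound present, and control to both ratios taken without it.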

How the results depend on the processing

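No paired analysis was possible because each group has 1 library and no replicate numbers to pair; the additive fit compares each compound across the presence of the other. Leaving out a library would leave the additive fit no residual degree of freedom. Other scalings moved the median of all genes by at most 0.09 (log2), too little to turn a 2-fold ratio round, and 7 values near 0 changed sign, in ACO1, IREB2 and NCOA4. The counts of members 2-fold higher or lower with DHA than in control were 0 under every setting tried. At a 1.5-fold rule the count was 2 lower with CCCP, 4 higher for both against CCCP and 5 higher for both against DHA; at 4-fold all 5 nonzero counts against control, CCCP or DHA were 0. TFRC against CCCP, 4.12-fold in FPKM, missed 4-fold only through the pseudocount (log2 2.04 without it). HMOX1 with DHA, 1.52-fold lower than control in FPKM, missed the 1.5-fold rule in the same way (log2 -0.56 with the pseudocount, -0.61 without it). Members past the adjusted p in the additive fit numbered 1 for CCCP (FTL, adjusted p 0.0292) after rescaling to equal summed reads; 1 for CCCP and 2 for DHA with no filter; and 2 and 3 with voom. Over all genes, the additive fit called 5 higher and 8 lower with CCCP (range 0 to 474 and 0 to 523) and 13 higher and 1 lower with DHA (range 0 to 424 and 0 to 577), with the most calls when low genes were not filtered; the cause was not tested. Summing FPKM over pseudogenes gave FTH1 ratios of 1.39 with CCCP and 2.97 with both. Depth limits HMOX1 most, on 188 to 402 reads.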

Other observations

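Besides the ferritin genes and SLC40A1, the genes with the iron-responsive pattern in their first 300 bases were ALAS2, GALR3, PRPF18 and TMEM198. ALAS2, the erythroid enzyme paralogous to ALAS1, did not reach 1 FPKM. PRPF18 and TMEM198 were measured, with log2 ratios for both compounds against control of 0.03 and 0.16. Of the 35 measured genes that hold the pattern anywhere, leaving out FTL, FTH1 and TFRC, 1 was at least 2-fold higher and 1 lower with both compounds, where 4.52% and 5.44% of all genes were.

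Some further iron genes are given here after their values were seen. FBXL5, the iron-sensing ubiquitin ligase subunit that targets IRP2, was at 39.5 FPKM with CCCP, 26.1 with DHA and 35.1 with both, against 24.4 in control. SLC39A14, a zinc and iron importer, was at 17.2 FPKM with CCCP, 27.2 with DHA and 32.3 with both, against 24.6 in control. For SLC39A14, CCCP was the lowest library and the joint library the highest. CYBRD1, from the same list of iron uptake and reduction, went the other way. It was at 52.5 FPKM with CCCP, 36.7 with DHA and 30.6 with both, against 36.4 in control. Of the 10 measured genes of that list, 5 lay above control with both compounds. BMP6, a signal for hepcidin, had a log2 ratio of -1.08 with both against control at a mean of 0.799 FPKM. It reached 1 FPKM only with CCCP and in control.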
